A study of Mus musculus with 24 samples.

Results

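The transporters described here are 10 mouse genes for the uptake of peptides and amino acids by the intestinal epithelium, taken from a list of names, with no threshold on any measured value: *Slc15a1*, *Slc6a19*, *Slc7a9*, *Slc3a1*, *Slc7a7*, *Slc7a8*, *Slc6a20a*, *Slc1a1*, *Slc36a1* and *Slc36a4*. They are 10 of the 53465 genes in the count table, and all 10 were among the 15044 genes that passed the filter on low counts and were tested. The 24 libraries hold RNA of epithelial cells that were positive or negative for Venus, taken at 4 sites of the gut (duodenum, jejunum, ileum, and colon with rectum), which makes 8 groups of 3. All groups, positive and negative, came from Guca2a-Venus mice fed standard chow, in which an inserted copy of the *Guca2a* (proguanylin) locus carries the yellow fluorescent protein Venus in place of the coding sequence. Venus therefore marks cells with an active proguanylin promoter of that insert, in a line that goes back to 1 founder. Dead cells, debris and CD45-positive immune cells were left out of the sort, and the labels name neither the mouse nor its age. The study design speaks of triplicates from different mice, but positive and negative cells of one mouse could not be matched. *Guca2a* itself was at 104 CPM or more (counts scaled to library size by the TMM method) in the 12 positive libraries and at 2.67 to 120 CPM in the 12 negative libraries, with no overlap within any region.

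Dietary protein reaches the small intestinal epithelium as small peptides and free amino acids. Peptides enter through a proton-coupled transporter in the brush border, and amino acids enter through carriers for neutral, basic, acidic and imino acids. Exchangers in the basolateral membrane then pass amino acids towards the blood. Several of these proteins work only in pairs, in which a light chain that forms the pore is held to a heavy chain that brings it to the membrane. Absorptive enterocytes of the villus are the known site of most of these genes, whereas goblet and Paneth cells are secretory.

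The genes lie on chromosomes 7, 9, 11, 13, 14, 17 and 19 of GRCm38, where *Slc15a1*, *Slc7a7* and *Slc7a8* share chromosome 14 and *Slc6a20a* and *Slc36a4* share chromosome 9. Their sequence upstream of the start was searched, because most of these genes were high in the same groups, for the letters of motifs of 3 intestinal transcription factors, on both strands. The letters of HNF4 were AAAGTCCA. Those of CDX2 were CCATAAA. As an alternative for the same factor, CAATAAA was accepted too. The letters of the GATA factors were AGATAA, and these motifs do not overlap in the matches found. RefSeq promoters of GRCm38.p6, from 250 bases before to 50 bases after the start, were found for all 10 genes, with 15 starts between them. The 4 promoters below are shown because *Slc3a1* alone held all 3 motifs, *Slc7a9* is its partner gene, *Slc15a1* had the highest level per length, and *Slc36a4* followed another pattern than the rest. Capitals mark the motif matches, and each sequence is given 5′ to 3′ on the strand of its gene.
Slc3a1 (chr17:85028097-85028396, plus strand): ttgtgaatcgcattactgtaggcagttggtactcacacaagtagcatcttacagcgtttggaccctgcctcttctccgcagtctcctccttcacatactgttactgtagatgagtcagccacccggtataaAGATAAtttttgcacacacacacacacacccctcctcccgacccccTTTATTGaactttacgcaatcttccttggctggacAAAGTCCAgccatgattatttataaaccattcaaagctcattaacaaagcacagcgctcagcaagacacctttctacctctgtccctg
Slc7a9 (chr7:35448842-35449141, plus strand): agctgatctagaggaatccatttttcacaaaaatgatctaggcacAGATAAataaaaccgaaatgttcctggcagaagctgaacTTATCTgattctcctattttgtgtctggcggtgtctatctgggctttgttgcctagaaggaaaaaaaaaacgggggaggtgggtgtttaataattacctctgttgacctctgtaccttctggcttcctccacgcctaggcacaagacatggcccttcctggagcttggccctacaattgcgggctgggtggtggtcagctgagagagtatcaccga
Slc15a1 (chr14:121505205-121505504, minus strand): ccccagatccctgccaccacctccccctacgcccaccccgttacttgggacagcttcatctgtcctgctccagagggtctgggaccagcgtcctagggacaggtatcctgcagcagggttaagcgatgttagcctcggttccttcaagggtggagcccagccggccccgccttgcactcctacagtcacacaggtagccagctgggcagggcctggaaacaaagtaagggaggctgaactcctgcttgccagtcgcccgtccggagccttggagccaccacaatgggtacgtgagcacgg
Slc36a4 (chr9:15709488-15709787, plus strand): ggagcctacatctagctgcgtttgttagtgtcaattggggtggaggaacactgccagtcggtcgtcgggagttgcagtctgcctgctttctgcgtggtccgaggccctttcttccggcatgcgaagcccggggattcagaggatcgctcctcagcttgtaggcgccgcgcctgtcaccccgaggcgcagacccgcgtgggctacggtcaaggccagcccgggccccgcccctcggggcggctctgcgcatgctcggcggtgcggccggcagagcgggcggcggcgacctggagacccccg

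In *Slc3a1* the HNF4 letters began 38 bases, the CDX2 letters (read on the other strand) 73 bases and the GATA letters 119 bases before the start. In *Slc7a9* both matches were to the GATA letters, 205 and 166 bases before the start, once on each strand. Beyond these, GATA letters were found at 2 overlapping starts of *Slc7a7*, and the promoters of the other 7 genes held none of the 3 motifs. Of all 32851 promoters of this length, 1.25% held the HNF4 letters, 7.2% the CDX2 letters and 11.2% the GATA letters. These matches describe letters and not bound sites, and a promoter without a match only lacks these letters in this window.

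Between 7458616 and 23063124 reads per library were counted in genes, and 3 counts corresponded to 0.106 to 0.36 CPM. The share of these reads on mitochondrial genes moved with the sort. It was 32.3% to 46.6% in positive against 64.6% to 76.4% in negative cells of the duodenum, 47.1% to 60.6% against 61.2% to 78.8% in the jejunum, and 41.0% to 55.4% against 64.7% to 70.9% in the ileum, while colonic libraries overlapped at 68.6% to 77.9% against 65.3% to 80.7%. Its part in the differences was not tested, beyond an alternative fit that left out mitochondrial genes, given at the end. Differences were tested with the quasi-likelihood test of edgeR across all 24 libraries, with p-values adjusted over the 15044 genes (Benjamini-Hochberg) and called at 0.05, and folds and log2 fold changes are those of this model. The p-values measure the spread between these libraries, and the intervals given for low counts cover counting error only.

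The peptide transporter gene *Slc15a1* (PepT1, the brush border carrier of small peptides; ENSMUSG00000025557, chr14:121459621-121505252) was high in positive cells of jejunum and ileum. Its level was 665, 391 and 641 CPM in the 3 positive libraries of the jejunum and 44.4, 47.1 and 59.6 CPM in the negative ones. In the ileum it was 177, 250 and 325 CPM against 6.52, 16.8 and 16.2 CPM. The positive libraries of both regions stood far above the negative ones, by 11.2-fold in the jejunum (log2 fold change 3.49 ± 0.41 (SE), edgeR adjusted p = 1.86e-07) and by 19.0-fold in the ileum (4.25 ± 0.43, adjusted p = 2.66e-08). In the duodenum the libraries overlapped, at 21.7, 14.0 and 37.4 CPM against 13.2, 18.5 and 23.2 CPM (0.41 ± 0.38, adjusted p = 0.494). In the colon the positive libraries held 11.6, 13.4 and 14.0 CPM and the negative ones 6.35, 2.78 and 8.76 CPM, which did not overlap but missed the threshold (1.13 ± 0.40, adjusted p = 0.0578). It was passed with no filter on low counts (adjusted p = 0.0173) and with the i5 index of the library as a covariate (0.0245), and the difference was 0.71 without negative library 2 of the colon (0.307) and 1.55 without negative library 3 (0.0278). Among positive cells *Slc15a1* was 23.3-fold higher in the jejunum than in the duodenum (adjusted p = 8.60e-09) and 43.5-fold higher than in the colon (adjusted p = 1.12e-10), while the jejunum and ileum did not differ past the threshold (1.18 ± 0.38 on the log2 scale, adjusted p = 0.0675).

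*Slc6a19*, the main brush border carrier of neutral amino acids (ENSMUSG00000021565, chr13:73679745-73704865), showed the same high groups. Its positive libraries held 357, 317 and 421 CPM in the jejunum against 25.7, 30.6 and 37.6 CPM in the negative ones. In the ileum they held 78.2, 270 and 338 CPM against 2.48, 13.4 and 14.0 CPM. The first library of each ileal group was the lowest of its group, yet no positive library came near a negative one. *Slc6a19* was 11.7-fold higher in positive cells of the jejunum (3.55 ± 0.50, adjusted p = 1.69e-06) and 23.0-fold higher in those of the ileum (4.52 ± 0.52, adjusted p = 1.37e-07). In the duodenum the values were 17.8, 27.3 and 45.8 CPM against 18.1, 22.9 and 24.2 CPM, which overlapped. Colonic levels were 0.618 to 1.74 CPM in positive and 1.02 to 1.68 CPM in negative cells, and among positive cells the jejunum exceeded the colon by 314-fold (8.29 ± 0.64, adjusted p = 2.23e-11), the widest difference between 2 regions for any of the 10 genes.

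**Figure D1:**
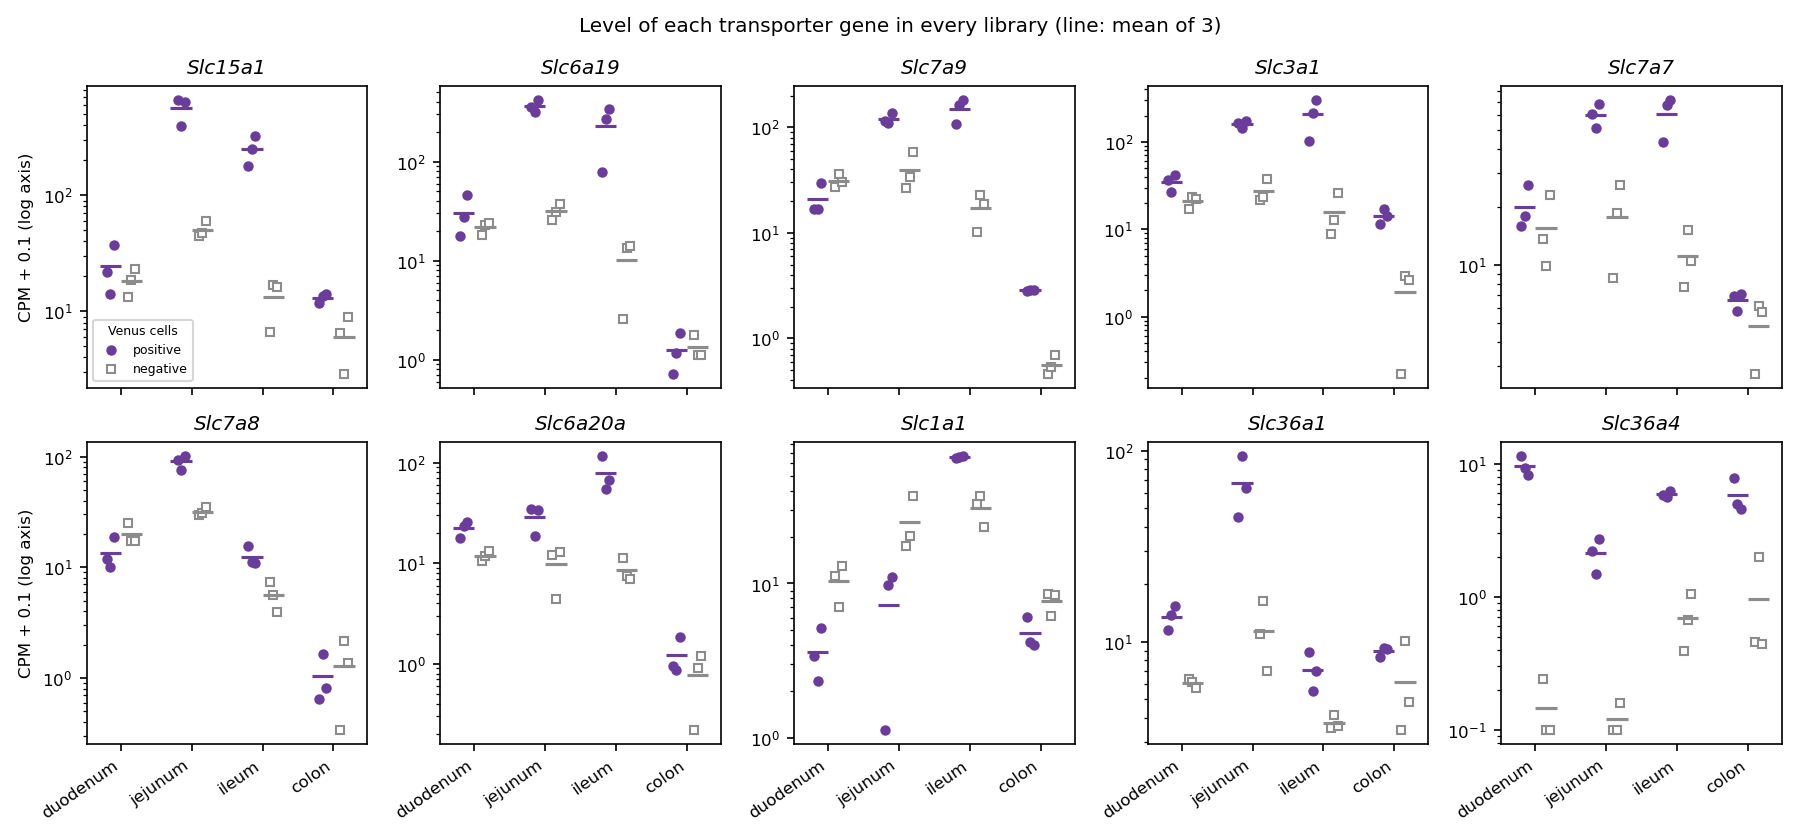
Level of each of the 10 transporter genes in all 24 libraries. The vertical log axis is CPM + 0.1, the horizontal axis the region, filled circles are Venus-positive and open squares Venus-negative libraries, and lines are means of 3. Most genes peak in positive cells of the jejunum or ileum, while *Slc1a1* lies lower in positive than in negative cells of the duodenum and jejunum, and negative libraries of *Slc36a4* sit at or near 0 in these same regions.

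*Slc6a20a*, a carrier of proline and other imino acids (ENSMUSG00000036814, chr9:123634770-123678885), had its highest level in the ileum. Positive libraries of the ileum held 117, 54.4 and 67.1 CPM and negative ones 11.3, 7.30 and 6.82 CPM, a 9.38-fold difference (3.23 ± 0.41, adjusted p = 6.12e-07). In the jejunum they held 34.3, 18.6 and 34.1 CPM against 12.1, 4.31 and 12.7 CPM (2.99-fold, adjusted p = 0.00161). In both regions the groups stood apart. In the duodenum the libraries also stood apart, at 17.9, 23.6 and 25.8 CPM against 10.5, 11.7 and 13.3 CPM, but the difference missed the threshold (0.92 ± 0.39, adjusted p = 0.0992). It passed with no filter on low counts (adjusted p = 0.0478), with scaling by library size alone (0.0307) and in a model of the 6 duodenal libraries alone (0.00896). *Slc6a20a* was at 0.779 to 1.74 CPM in positive and 0.120 to 1.11 CPM in negative cells of the colon. The ileum exceeded the jejunum by 2.75-fold in positive cells (adjusted p = 0.0203), a call that was lost without the first positive library of the ileum (adjusted p = 0.187) or the second of the jejunum (0.149). The neighbouring copy *Slc6a20b* had group means of 0 to 2.01 CPM, and reads shared by both copies were not counted for either, so the split between them is uncertain. *Slc6a20a* also shares 607 exon bases with genes on the opposite strand, among them *Ccr9*.

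*Slc7a9* and *Slc3a1* encode the light and the heavy chain of the brush border exchanger for cystine and basic amino acids, whose loss causes cystinuria. *Slc7a9* (ENSMUSG00000030492, chr7:35448796-35466036) was at 115, 109 and 137 CPM in positive and 26.7, 33.6 and 58.1 CPM in negative cells of the jejunum. Its ileal libraries held 107, 161 and 182 CPM against 10.1, 22.9 and 18.8 CPM. These groups stood apart, with 3.05-fold (1.61 ± 0.31, adjusted p = 1.16e-04) and 8.70-fold (3.12 ± 0.33, adjusted p = 5.05e-08) higher levels in positive cells. In the colon *Slc7a9* was low, at 2.70, 2.76 and 2.78 CPM against 0.360, 0.439 and 0.595 CPM, yet 5.74-fold higher in positive cells (2.52 ± 0.44, adjusted p = 2.15e-04). The negative libraries of the colon held only 3, 6 and 7 counts of *Slc7a9*, so this fold rests on few reads. In the duodenum the levels were 16.7, 16.7 and 29.4 CPM in positive and 26.9, 36.0 and 30.4 CPM in negative cells, which overlapped (-0.57 ± 0.31, adjusted p = 0.208).

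*Slc3a1* (ENSMUSG00000024131, chr17:85028376-85064236) was at 165, 143 and 173 CPM in positive and 21.4, 23.2 and 37.1 CPM in negative cells of the jejunum. The ileum had 104, 217 and 305 CPM against 8.83, 12.6 and 25.8 CPM, and the colon 11.4, 17.0 and 14.2 CPM against 0.120, 2.78 and 2.55 CPM. The groups did not overlap in any of the 3 regions, and *Slc3a1* was 5.88-fold (adjusted p = 3.24e-05), 13.3-fold (5.17e-07) and 7.40-fold (1.69e-04) higher in the positive cells, in the order jejunum, ileum, colon. The first negative library of the colon had 1 count of *Slc3a1*, and without it the colonic log2 fold change was 2.41 in place of 2.89 (adjusted p = 6.73e-04). In the duodenum the libraries stood apart at 36.2, 26.4 and 41.8 CPM against 17.0, 23.3 and 22.3 CPM but missed the threshold (0.73 ± 0.43, adjusted p = 0.248), which was passed in a model of the 6 duodenal libraries alone (adjusted p = 0.0258).

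Since levels of 2 genes can be compared only per length, CPM were divided by the kilobases of exon of each gene. On that scale the heavy chain gene *Slc3a1* exceeded the light chain gene *Slc7a9* in every positive library of the duodenum (ratio 2.55, 1.86 and 1.67) and jejunum (1.68, 1.55 and 1.48). In the negative libraries it lay below, at 0.746, 0.762 and 0.868 in the duodenum and 0.944, 0.811 and 0.752 in the jejunum. The ileal ratios of positive cells (1.14 to 1.97) and negative cells (0.646 to 1.62) overlapped. In positive cells of the colon the ratio was 4.95 to 7.25, and in the negative ones it ranged from 0.393 to 7.46 on as few as 1 count. The difference in this ratio between the sorts was not tested. *Slc3a1* shares 601 exon bases with *Prepl* on the opposite strand, and the strand setting of the counting is not given in the sources used here, so some of its counts could belong to that gene.

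*Slc1a1*, the epithelial carrier of glutamate and aspartate (ENSMUSG00000024935, chr19:28835049-28913960), was the gene whose difference between the sorts turned with the region. In the duodenum it was at 3.28, 2.22 and 5.06 CPM in positive and 11.2, 6.94 and 12.8 CPM in negative cells. In the jejunum it was at 1.02, 9.71 and 10.9 CPM against 17.3, 20.1 and 36.9 CPM. Positive libraries lay below all negative ones in both regions, and *Slc1a1* was 2.95-fold lower in the duodenum (-1.56 ± 0.48, adjusted p = 0.0237) and 3.45-fold lower in the jejunum (-1.78 ± 0.46, adjusted p = 0.00209). The first positive library of the jejunum had 16 counts of *Slc1a1*, against 174 and 149 in the others, and without it the jejunal log2 fold change was -1.27 (adjusted p = 0.00767).

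In the ileum the order was the opposite, with 64.8, 66.4 and 67.2 CPM of *Slc1a1* in positive and 32.6, 36.5 and 23.1 CPM in negative cells (2.15-fold higher, 1.10 ± 0.44, adjusted p = 0.0461). Here the 3 positive libraries lay close together and above all negative ones. In the colon positive cells held 5.95, 4.11 and 3.87 CPM and negative cells 8.39, 6.08 and 8.33 CPM, which stood apart but missed the threshold (-0.71 ± 0.47, adjusted p = 0.351). The change of direction between jejunum and ileum passed a test of the difference itself, at -2.89 ± 0.63 on the log2 scale (adjusted p = 0.0354), as did that between duodenum and ileum (-2.67 ± 0.65, adjusted p = 0.00691). Among positive cells the ileum exceeded the duodenum by 18.9-fold (adjusted p = 4.93e-07), the jejunum by 9.19-fold (3.19e-05) and the colon by 14.2-fold (8.59e-07). In negative cells the ileum and jejunum overlapped in *Slc1a1*, and the ileum exceeded the duodenum by 2.99-fold (adjusted p = 0.0380), a call lost without any 1 of 6 libraries (0.0515 to 0.221), namely the 3 negative ones of the duodenum, negative libraries 1 and 2 of the ileum and positive library 2 of the colon.

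The calls on *Slc1a1* were near the threshold in 2 regions. The duodenal call was lost with scaling by library size alone (adjusted p = 0.125) and without positive library 1 or 2 or negative library 1 or 3 of the duodenum (0.0572 to 0.114). The ileal call was lost with library size alone (0.0854), with at least 10 counts required in every library (0.0789), and without any 1 of 11 libraries (0.0503 to 0.155), which were all 6 of the ileum, positive library 1 and negative libraries 1 and 3 of the duodenum, and positive libraries 1 and 3 of the colon. The difference between jejunum and ileum was lost with library size alone (0.105), in a model of the compared libraries alone (0.133), and without any 1 of 8 libraries (0.0507 to 0.108). *Slc1a1* shares 2631 exon bases with *4430402I18Rik* on the opposite strand.

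*Slc7a7* and *Slc7a8* encode light chains of basolateral exchangers, the first for basic amino acids and mutated in lysinuric protein intolerance, the second for neutral amino acids, and both pair with the heavy chain of *Slc3a2*. *Slc7a7* (ENSMUSG00000000958, chr14:54369442-54417780) was at 61.0, 51.2 and 68.7 CPM in positive and 8.50, 18.6 and 26.1 CPM in negative cells of the jejunum. In the ileum it was at 43.3, 67.7 and 72.1 CPM against 7.59, 15.2 and 10.5 CPM. The groups stood apart, and *Slc7a7* was 3.39-fold (adjusted p = 2.59e-04) and 5.50-fold (7.31e-06) higher in positive cells. It overlapped in the duodenum, at 16.0, 18.0 and 26.1 CPM against 13.7, 9.86 and 23.1 CPM, and in the colon, at 6.88, 5.73 and 6.97 CPM against 2.64, 6.08 and 5.61 CPM. *Slc7a7* shares 232 exon bases with *Oxa1l* on the opposite strand.

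*Slc7a8* (ENSMUSG00000022180, chr14:54722209-54781946) was highest in the jejunum, at 93.7, 75.1 and 102 CPM in positive and 29.3, 30.6 and 35.1 CPM in negative cells (2.84-fold, 1.51 ± 0.35, adjusted p = 9.24e-04). In the ileum it held 15.3, 11.0 and 10.8 CPM against 7.34, 5.50 and 3.88 CPM (2.22-fold, 1.15 ± 0.36, adjusted p = 0.0123). Positive libraries were above negative ones in both regions, but the ileal call was lost without positive library 1 (adjusted p = 0.0592) or negative library 3 of the ileum (0.0707). The duodenum had 11.7, 9.93 and 18.6 CPM in positive and 24.8, 17.2 and 17.1 CPM in negative cells, which overlapped, and the colon 0.541 to 1.56 CPM against 0.240 to 2.05 CPM.

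The 2 light chain genes parted between jejunum and ileum. *Slc7a8* was 7.27-fold higher in positive cells of the jejunum than of the ileum (adjusted p = 3.66e-06) and 5.66-fold higher in the negative cells (5.67e-05), while *Slc7a7* differed by -0.02 ± 0.35 on the log2 scale in positive cells. Per kilobase, the ratio of *Slc7a8* to *Slc7a7* was 0.972 to 1.02 in the 3 positive libraries of the jejunum and 0.0994 to 0.235 in those of the ileum. Their heavy chain gene *Slc3a2* was at 137 ± 24.9 CPM (SD, n = 3) in positive and 43.3 ± 18.8 CPM in negative cells of the jejunum (1.67 ± 0.32, adjusted p = 1.08e-04) and at 65.6 ± 21.1 against 15.9 ± 3.39 CPM in the ileum (2.05 ± 0.33, adjusted p = 1.32e-05).

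**Figure D2:**
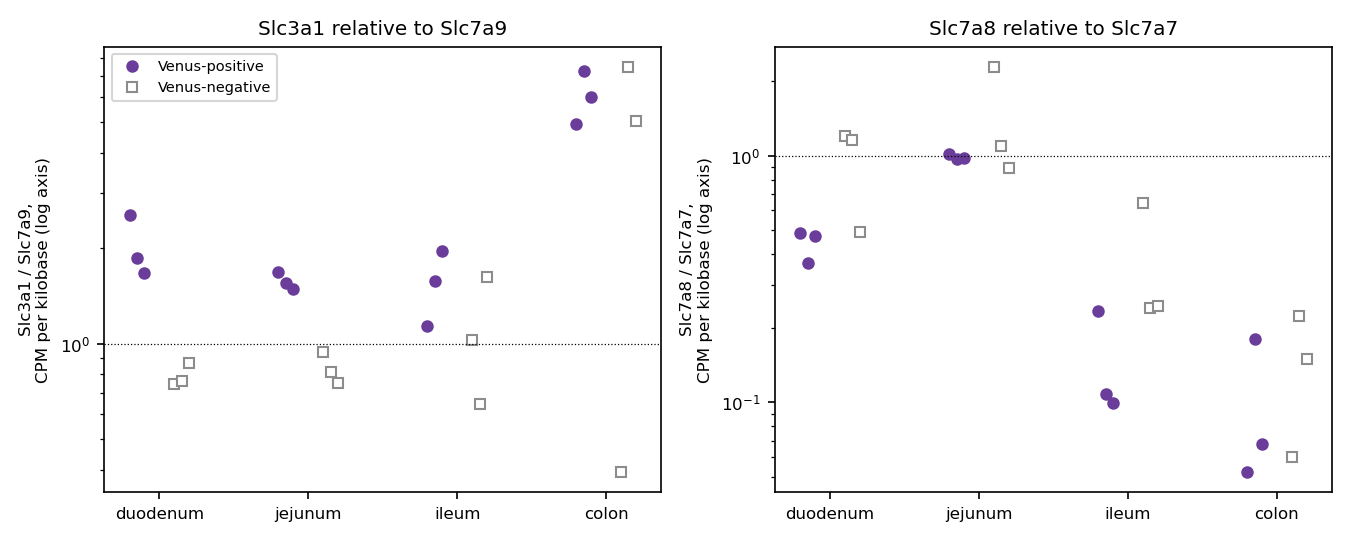
Ratio of the levels per kilobase of exon of *Slc3a1* to *Slc7a9* (left) and of *Slc7a8* to *Slc7a7* (right), on log axes, in each library by region; filled circles are Venus-positive and open squares Venus-negative libraries. The left ratio is above 1 in all positive libraries of the duodenum and jejunum and below 1 in all negative ones, and the right ratio falls from 0.972 to 1.02 in positive cells of the jejunum to 0.0994 to 0.235 in those of the ileum.

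*Slc36a1*, a proton-coupled carrier of small neutral amino acids at the brush border and in lysosomes (ENSMUSG00000020261, chr11:55204350-55236330), was highest in positive cells of the jejunum. It held 44.9, 93.9 and 64.0 CPM there against 10.9, 16.1 and 6.96 CPM in negative cells (5.96-fold, 2.57 ± 0.35, adjusted p = 1.23e-06). In the duodenum it was at 11.4, 13.6 and 15.3 CPM against 6.31, 6.09 and 5.62 CPM (2.23-fold, adjusted p = 0.0208), and in the ileum at 8.72, 5.41 and 6.91 CPM against 3.42, 4.06 and 3.55 CPM (1.91-fold, adjusted p = 0.0344). The groups stood apart in these 3 regions and overlapped in the colon, at 8.27, 9.20 and 9.04 CPM against 3.36, 9.96 and 4.76 CPM. Along the gut, *Slc36a1* was 9.62-fold lower in positive cells of the ileum than of the jejunum (adjusted p = 2.64e-07). The duodenal call was lost without positive library 2 or 3 or any negative library of the duodenum (adjusted p = 0.0516 to 0.0735). The ileal call was lost without positive library 1 or 3 or any negative library of the ileum (0.0576 to 0.138), and when 10 counts were required in every library (0.0719).

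*Slc36a4*, a carrier of the same family with high affinity for proline and tryptophan (ENSMUSG00000043885, chr9:15709738-15743361), was low throughout but almost absent from some negative groups. Positive libraries held 11.4, 9.20 and 8.10 CPM in the duodenum, 2.11, 1.39 and 2.63 CPM in the jejunum, 5.76, 5.53 and 6.10 CPM in the ileum and 7.73, 4.88 and 4.45 CPM in the colon. Negative libraries held 0.140, 0 and 0 CPM in the duodenum, 0, 0 and 0.0605 CPM in the jejunum, 0.289, 0.564 and 0.942 CPM in the ileum and 0.360, 1.90 and 0.340 CPM in the colon. Positive and negative libraries stood apart in every region. The negative cells had 2 counts in all in the duodenum against 295 in positive cells, a ratio of 208 after scaling (exact 95% interval for counting error 57.2 to 1728), and 1 count against 94 in the jejunum, a ratio of 90.0 (15.8 to 3590). The difference passed the threshold in all 4 regions (adjusted p = 3.85e-07, 9.46e-06, 1.69e-04 and 0.00540 from duodenum to colon), with 9.71-fold higher levels in the ileum and 6.26-fold in the colon. Without the second negative library of the colon, which had 26 counts against 3 and 4 in the others, the colonic log2 fold change was 3.93 in place of 2.65 (adjusted p = 0.00145). Among positive cells the duodenum exceeded the jejunum by 4.68-fold (2.23 ± 0.61, adjusted p = 0.00520), the reverse of the order of 7 other transporters that were higher in the jejunum.

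Counted over the 10 genes, 2 rose with Venus in the duodenum (*Slc36a1*, *Slc36a4*), where 8.88% of all genes tested were called higher, and 1 was lower (*Slc1a1*), where 8.08% of all genes were. In the jejunum 9 were higher (18.3% of all genes) and *Slc1a1* was lower (25.6%). In the ileum all 10 were higher (17.9% of all genes), and none lower by edgeR or by DESeq2 or at an unadjusted p under 0.05, against 20.6% of all genes. In the colon 3 were higher (*Slc7a9*, *Slc3a1*, *Slc36a4*; 9.31% of all genes), and none lower by edgeR or by DESeq2 or at an unadjusted p under 0.05, against 3.8% of all genes. The median log2 fold change of the 10 genes was 0.44, 2.16, 3.18 and 0.59 in the duodenum, jejunum, ileum and colon, and that of all genes tested was -0.16, -0.28, -0.27 and 0. The positive and negative libraries did not overlap for 5, 10, 10 and 5 of the 10 genes, and for 37.2%, 52.4%, 53.3% and 30.9% of all genes tested. Scaling by library size alone moved the median of all genes to 0.27, 0.02, -0.31 and -0.07 in the same order. With it, 2267 genes were called higher and 350 lower in the duodenum, in place of 1336 and 1216, and 3338 and 2943 in the jejunum, in place of 2749 and 3851.

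**Figure D3:**
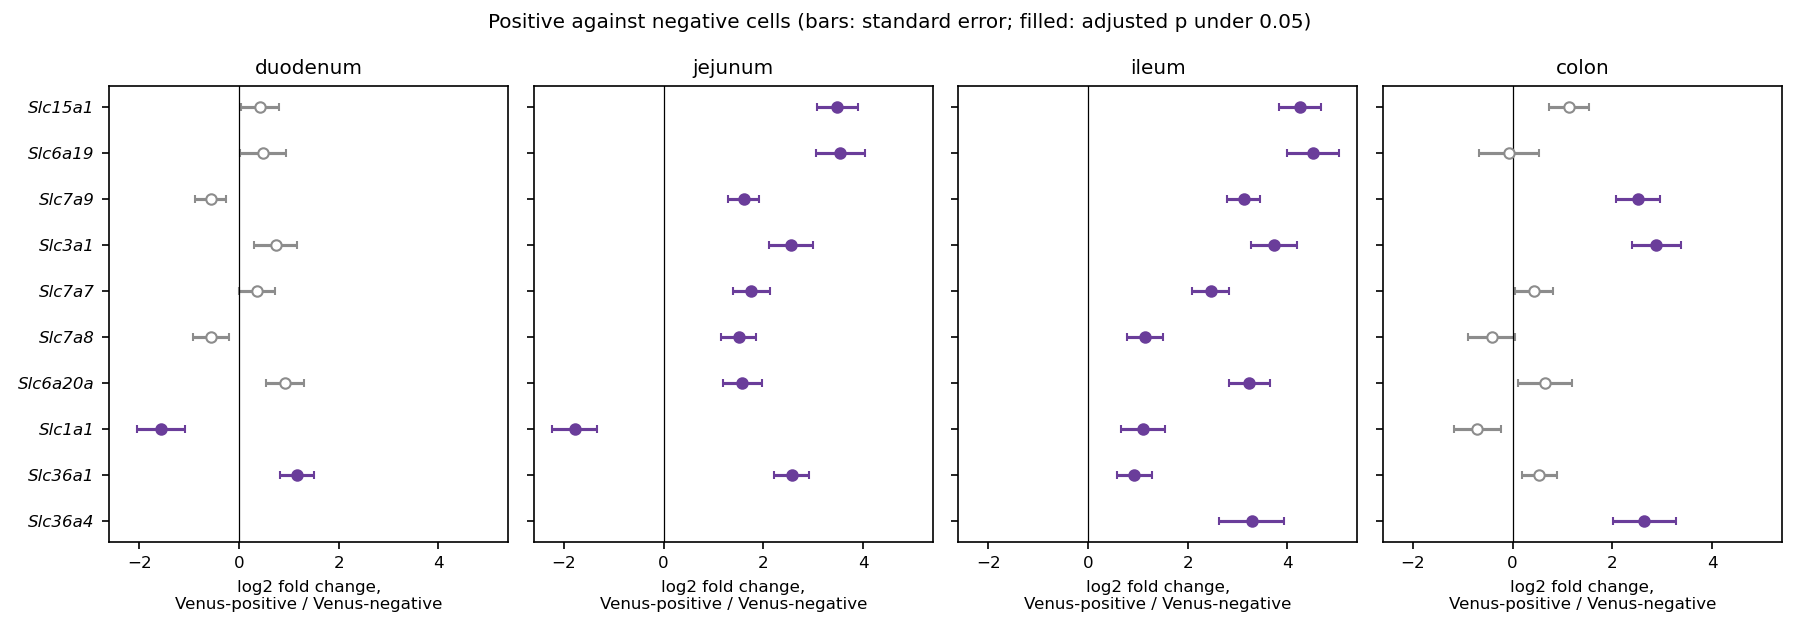
Log2 fold change of each transporter gene between Venus-positive and Venus-negative cells in the 4 regions, with standard errors; filled symbols passed an adjusted p of 0.05. All plotted genes but *Slc1a1* lie right of 0 in the jejunum, all 10 do in the ileum, and *Slc36a4* is left out in the duodenum and jejunum, where its negative libraries held 2 and 1 counts in all.

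Markers of cell types moved with the sort, and bulk RNA cannot tell fewer cells of a type from less RNA per cell. Of 12 enterocyte markers, all 12 rose with Venus in the jejunum and likewise in the ileum, with summed levels of 34540 to 41600 CPM against 3391 to 4545 CPM in the jejunum and 11860 to 23240 CPM against 1253 to 1564 CPM in the ileum. In the duodenum 3 of 12 were higher (2785 to 6047 against 2260 to 3191 CPM), and in the colon 5 of 12 (583.6 to 779.2 against 245.8 to 302.3 CPM). All 8 goblet markers were higher in positive cells of all 4 regions, and their sum was largest in the duodenum, at 53010 to 60460 CPM against 310.0 to 433.7 CPM. All 7 Paneth markers were higher in the 3 small intestinal regions and none in the colon, and in the duodenum their sum was 22160 to 52980 CPM against 194.4 to 746.3 CPM. Markers of stem and proliferating cells were lower in positive cells, 8 of 8 in the jejunum and ileum, 3 of 8 in the duodenum and 4 of 8 in the colon. Enteroendocrine markers were lower in 9 of 9, 9 of 9, 8 of 9 and 6 of 9. Tuft markers were lower in 2, 4, 4 and 0 of the 5 tested. Of 4 stromal and endothelial markers tested, 1, 1, 3 and 0 were lower from duodenum to colon. Summed levels of all 6 listed were 0.1125 to 3.398 CPM in positive and 3.997 to 23.57 CPM in negative libraries. In negative cells *Vim* had the highest mean of these in every region (12.4, 13.0, 5.92 and 5.54 CPM from duodenum to colon). Of 5 immune markers tested, 1 was higher in the duodenum, 1 lower in the jejunum and 1 higher in the ileum. The sum over all 6 listed was 10.13 to 29.23 against 1.193 to 2.658 CPM in the duodenum. Most of it in positive cells was *Lyz2* (mean 16.3 against 0.281 CPM). By the mean, *Ms4a1* (0.249 against 0) and *Cd3e* (0.188 against 0.166) were also higher there. *Ptprc* (0.0750 against 0.490), *Cd79a* (0 against 0.548) and *Cd8a* (0.0547 against 0.544) were lower. The part of these cell types in the differences of the transporters was not tested.

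Per length, the 10 genes together reached 361 ± 54.3 CPM per kilobase (SD, n = 3) in positive cells of the jejunum and 295 ± 97.5 in those of the ileum, against 62.4 ± 17.0 and 29.1 ± 7.32 in the negative cells. In the duodenum the sums were 52.7 ± 13.9 and 42.8 ± 4.48, and their ranges of 43.5 to 68.6 and 38.0 to 47.0 overlapped. In the colon they were 15.6 ± 1.19 and 6.41 ± 1.77. *Slc15a1* had the highest level per kilobase in positive cells of the jejunum, with 116 or 32.1% of the sum, followed by *Slc6a19* (73.0), *Slc3a1* (70.5) and *Slc7a9* (45.0). In positive cells of the ileum *Slc3a1* came first with 91.7 or 31.0% of the sum, and of the colon with 6.25 or 40.1%. By the mean, *Slc7a9* led in negative cells of the duodenum (11.6) and jejunum (14.8), *Slc3a1* in those of the ileum (6.93) and *Slc7a7* in those of the colon (1.44). The last 2 leads were narrow. In the ileum the ratio of *Slc3a1* to *Slc7a9* was 0.646 to 1.62 in single negative libraries. In the colon *Slc7a7* was at 1.44 ± 0.563 and *Slc15a1* at 1.22 ± 0.615. At the other end, *Slc36a4* had the lowest mean level per kilobase in both sorts of the jejunum and ileum, and also among negative cells from duodenum and colon, *Slc1a1* in positive cells of the duodenum (0.426) and *Slc7a8* in those of the colon (0.187). Some last places were narrow. In the colon *Slc36a4* was at 0.133 ± 0.137 and *Slc6a20a* at 0.166 ± 0.124 in negative cells, and *Slc7a8* at 0.187 ± 0.109 and *Slc6a19* at 0.228 ± 0.113 in positive cells. In positive cells of the jejunum *Slc36a4* was at 0.312 ± 0.0945 and *Slc1a1* at 0.872 ± 0.651.

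**Figure D4:**
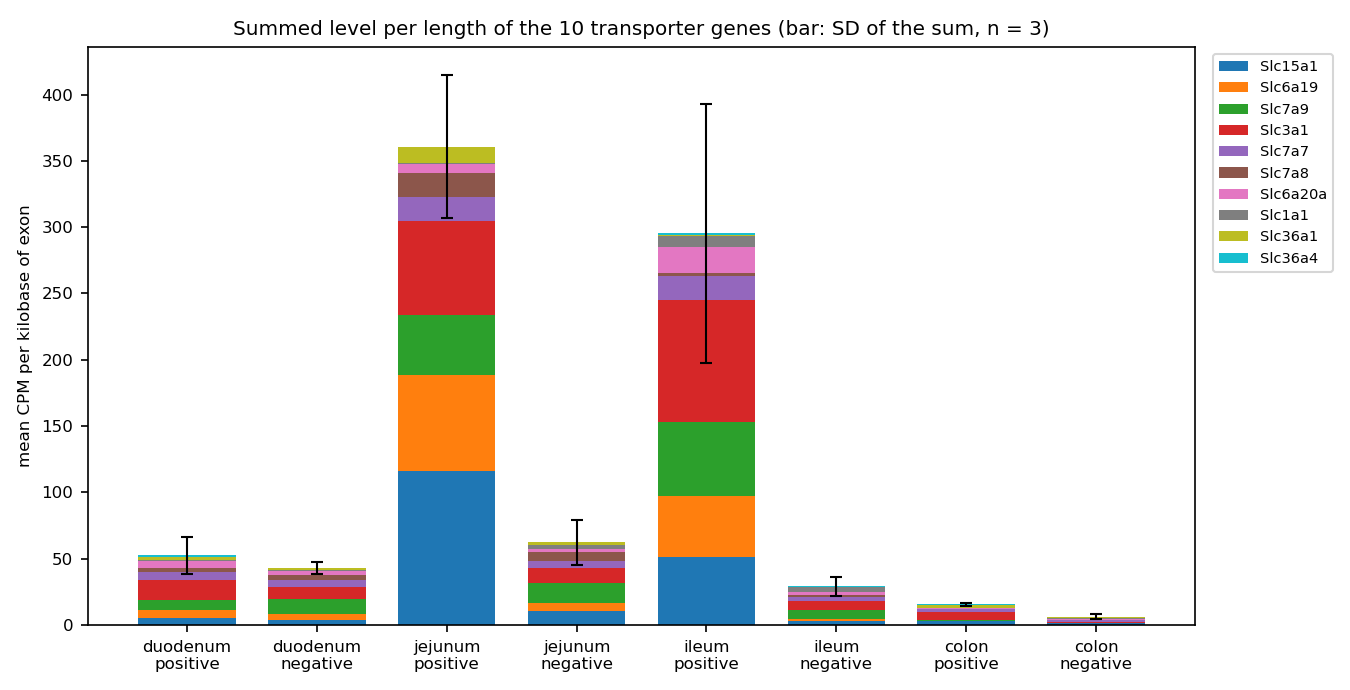
Mean level per kilobase of exon of the 10 transporter genes, stacked, in each of the 8 groups; the vertical axis is CPM per kilobase from 0, and error bars are the SD of the sum over 3 libraries. The sum is 361 and 295 in positive cells of the jejunum and ileum, and the next highest is 62.4, in negative cells of the jejunum.

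Along the gut, each of the 60 combinations of gene and pair of regions was tested directly within each sort. Between duodenum and jejunum 8 of 10 genes passed in positive cells (33.2% of all genes), 7 of them higher in the jejunum. In negative cells none passed by edgeR (0 of 10, against 0.725% of all genes), 3 were under an unadjusted p of 0.05, and 1 passed by DESeq2. Between duodenum and ileum 8 passed in positive cells (25.5%), of which 7 were higher in the ileum and *Slc36a1* in the duodenum, and 3 in negative cells (4.4%). *Slc36a1* was the weakest of these, at 0.94 ± 0.34 on the log2 scale (adjusted p = 0.0447), and its call was lost without any 1 of 13 libraries (0.0521 to 0.181). It was also lost with library size alone (0.102) and with no filter on low counts (0.08).

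Between jejunum and ileum 4 passed in positive cells (5.15%): *Slc7a8* and *Slc36a1* were higher in the jejunum, *Slc6a20a* and *Slc1a1* in the ileum. In negative cells 5 passed (2.11%), with *Slc15a1*, *Slc7a9*, *Slc7a8* and *Slc36a1* higher in the jejunum and *Slc36a4* in the ileum. Of these, the call on *Slc7a9* was lost without any 1 of 5 libraries (adjusted p = 0.0557 to 0.356), namely negative libraries 1 and 3 of the ileum, 3 of the jejunum and 2 of the colon and positive library 2 of the colon, with library size alone (0.228) and in a model of the compared libraries alone (0.154). That on *Slc36a1* was lost without negative library 1 of the ileum or 2 of the jejunum (0.0504 to 0.0783) and with library size alone (0.0961), and that on *Slc36a4* without negative library 1 or 2 of the jejunum or 3 of the ileum (0.0528 to 0.0948). The mean in positive cells was lowest in the colon for 7 of the 10 genes, all but *Slc1a1*, *Slc36a1* and *Slc36a4*. In positive cells 6 passed between duodenum and colon (12.4%), 8 between jejunum and colon (33.9%) and 8 between ileum and colon (21.7%), all of them lower in the colon. In negative cells 8 passed between duodenum and colon (11.2%), 9 between jejunum and colon (10.5%) and 6 between ileum and colon (5.24%), and these were lower in the colon with the exception of *Slc36a4*, which was higher in the colon than in the duodenum and jejunum. The call on *Slc7a8* between negative cells of ileum and colon was lost in a model of the compared libraries alone (adjusted p = 0.134). In all, 42 of 60 combinations passed in positive and 31 of 60 in negative cells, of which 3 and 9 were lost without some single library. For 3 of the latter, between small intestine and colon, negative library 2 of the colon was the only one that ended the call. These were *Slc15a1* (adjusted p = 0.0918) and *Slc36a4* (0.0872) against the duodenum and *Slc1a1* against the ileum (0.0588). The call on *Slc1a1* between jejunum and colon was lost without that library or negative library 3 of the jejunum (0.101 to 0.109).

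Whether the difference between the sorts depended on the region was tested by interaction contrasts. Between duodenum and jejunum 6 of the 10 genes passed (14.6% of all genes), all with a larger log2 fold change in the jejunum, and between duodenum and ileum 9 passed (10.5%), of which 8 were larger in the ileum and *Slc36a4* in the duodenum. Between jejunum and ileum *Slc1a1* alone passed (0.266%). Between duodenum and colon 2 passed (3.62%), *Slc7a9* with the larger value in the colon and *Slc36a4* in the duodenum. Between jejunum and colon 4 passed (9.69%: *Slc15a1*, *Slc6a19*, *Slc7a8*, *Slc36a1*) and between ileum and colon 4 (2.79%: *Slc15a1*, *Slc6a19*, *Slc7a7*, *Slc6a20a*), all larger in the small intestine. These contrasts share libraries with each other and with the comparisons above.

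Of 37 other carriers of amino acids and peptides and their partner proteins, 26 were tested. In the duodenum 7 were higher and 1 lower in positive cells, where 8.88% of all genes were called higher and 8.08% lower. The jejunum had 5 higher and 9 lower (18.3% and 25.6% of all genes), the ileum 6 and 8 (17.9% and 20.6%), the colon 3 and 2 (9.31% and 3.8%). *Cltrn*, a membrane protein known from the kidney, was not seen in positive cells of the jejunum (0 counts) and had 19 counts in the negative ones, at least 4.88-fold higher there by the lower limit of the exact 95% interval for counting error.

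*Slc16a10*, a basolateral carrier of aromatic amino acids, was higher in positive cells of the jejunum (101 ± 24.3 against 20.8 ± 3.98 CPM, 2.28 ± 0.43 on the log2 scale, adjusted p = 8.77e-05) and ileum (26.8 ± 2.59 against 9.94 ± 2.34 CPM, adjusted p = 0.00824) and lower in those of the colon (1.09 ± 0.975 against 3.83 ± 2.08 CPM, adjusted p = 0.0171). *Slc7a15* was higher in positive cells in all 4 regions, at 68.0 ± 4.84 against 4.66 ± 1.85 CPM in the jejunum and 17.9 ± 1.65 against 0.569 ± 0.209 CPM in the ileum. In the colon it had 23 counts against 0, at least 4.56-fold higher by the same limit. The glutamate carrier gene *Slc1a3* was lower in positive cells of every region, by 1.43 to 3.83 on the log2 scale, and in the colon it was at 0.616 ± 0.0913 against 4.49 ± 0.945 CPM.

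In the jejunum *Slc7a2*, a carrier of basic amino acids, was at 0.122 ± 0.211 against 2.13 ± 1.31 CPM (adjusted p = 0.00281). It was near the floor in positive cells, with 5 counts, all in 1 library. In the ileum *Slc1a2*, another glutamate carrier gene, had 3 counts in positive cells, all in 1 library, against 308 in negative cells, a ratio of 70.9 (exact 95% interval for counting error 24.1 to 346). The duodenum differed in the genes that led: *Slc6a9*, a glycine transporter, was at 7.25 ± 2.61 against 0.790 ± 0.488 CPM (3.19 ± 0.78, adjusted p = 0.00534), and *Slc1a4*, a neutral amino acid exchanger, at 8.40 ± 1.75 against 0.990 ± 0.989 CPM (3.07 ± 0.67, adjusted p = 0.00193). *Slc6a14* was near the floor there, with 14 counts against 2, a ratio of 9.89 (2.27 to 89.6).

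**Figure D5:**
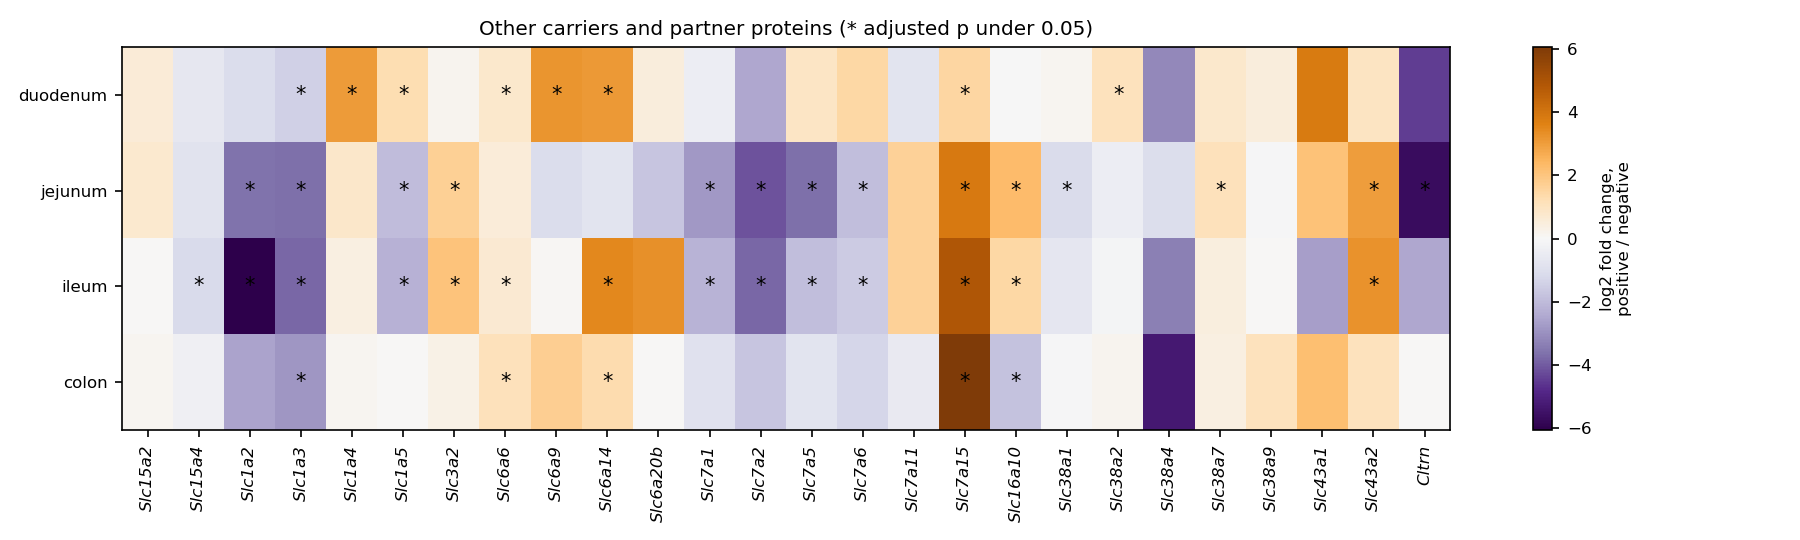
Log2 fold change between Venus-positive and Venus-negative cells of 26 other carriers and partner proteins (columns) in the 4 regions (rows), in colour, with asterisks at an adjusted p under 0.05. *Slc3a2* is higher in positive cells of the jejunum and ileum and not past the threshold in the duodenum and colon; fitted values of genes near 0 counts, such as *Cltrn* and *Slc7a15* in the colon, depend on the prior count.

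Across the 24 libraries, *Slc15a1*, *Slc6a19*, *Slc7a9*, *Slc3a1*, *Slc7a7*, *Slc7a8* and *Slc6a20a* followed each other, with Pearson r of log2 CPM between 0.719 and 0.936 over their 21 pairs. These 7 were set apart after their values were seen. With the other members, r was -0.403 to 0.373 for *Slc1a1*, -0.246 to 0.337 for *Slc36a4* and -0.403 to 0.649 for *Slc36a1*. Outside the 10 genes, the pattern most like that of *Slc15a1* was that of *Slc5a1*, the glucose carrier of the brush border (r 0.976), and of *Gpat3* (0.966). For *Slc6a19* these were *Apoa1* (0.986) and *Clca4b* (0.979), and for *Slc7a9* the disaccharidase gene *Sis* (0.983) and *Tm6sf2* (0.975). *Slc3a1* was closest to *Cyp4f14* and the brush border protease gene *Mep1b* (both 0.968), *Slc7a7* to *Plin3* (0.958) and *Tfg* (0.953), *Slc7a8* to *Ms4a10* (0.960) and *Fbln1* (0.941), and *Slc6a20a* to the anion exchanger gene *Slc26a6* (0.930) and *Tkfc* (0.926). *Slc36a4* was closest to the carboxypeptidase gene *Cpd* (0.936) and the chemokine gene *Ccl6* (0.925). Values for *Slc36a1* (*1810055G02Rik* 0.867, *Ndst1* 0.850) and *Slc1a1* (*Ctsc* and *Slitrk6*, both 0.819) were lower. These correlations are descriptions over libraries that share groups, depth and composition.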

How the data were processed

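The deposited table holds whole-number read counts per Ensembl gene for the 24 libraries, as the authors made them with STAR 2.5.1 on GRCm38 after CASAVA, per the submitters' processing notes. Libraries came from a stranded total RNA kit and single-end reads. The annotation used and the strand setting of the counting are not given in the sources used here, and reads that mapped to several places or were ambiguous between genes (0.716% to 2.59% of a library for the latter) were listed apart and left out.

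From these counts, genes were filtered by expression (filterByExpr, minimum count 10, minimum total 15) and fitted with edgeR 4.0.16 in R 4.3.3 (TMM scaling, 1 coefficient per group, quasi-likelihood test), after tests on simulated data. Groups came from the tissue and genotype labels. DESeq2 1.42.0 and other scalings, filters and sets of libraries were alternatives. CPM were divided by exon length from GENCODE M21 for levels per kilobase. Promoter sequences came from RefSeq on GRCm38.p6. Named were all 10 members, the 3 called other carriers with the largest change per region plus *Slc3a2*, *Cltrn* and *Slc16a10*, and the 2 protein-coding genes most correlated with each member over log2 CPM (prior count 2); *Slc6a20b*, *Slc1a3* and *Slc7a15* in further regions are given beside them. The members and lists were chosen with earlier results of these data known. One gene of the list of other carriers and partners is not reported here.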

Additional observations from a re-analysis of the deposited data

Results flagged for a closer look

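Regions differed in how far positive cells stood from negative ones. Each value below is the log2 fold change in the first region minus that in the second, for gene and pair of regions that passed the edgeR interaction test, with its adjusted p. For *Slc15a1* it was -3.08 for the duodenum minus the jejunum (adjusted p = 4.23e-04), -3.84 for the duodenum minus the ileum (adjusted p = 3.55e-05), 2.36 for the jejunum minus the colon (adjusted p = 0.00624) and 3.12 for the ileum minus the colon (adjusted p = 0.00213). For *Slc6a19* it was -3.07 for the duodenum minus the jejunum (adjusted p = 0.00205), -4.04 for the duodenum minus the ileum (adjusted p = 1.96e-04), 3.61 for the jejunum minus the colon (adjusted p = 0.00307) and 4.59 for the ileum minus the colon (adjusted p = 0.00138). For *Slc7a9* it was -2.18 for the duodenum minus the jejunum (adjusted p = 0.00127), -3.69 for the duodenum minus the ileum (adjusted p = 4.92e-06) and -3.09 for the duodenum minus the colon (adjusted p = 5.99e-04). For *Slc3a1* it was -1.82 for the duodenum minus the jejunum (adjusted p = 0.0405) and -2.99 for the duodenum minus the ileum (adjusted p = 0.00161). For *Slc7a7* it was -2.10 for the duodenum minus the ileum (adjusted p = 0.00722) and 2.03 for the ileum minus the colon (adjusted p = 0.0332). For *Slc7a8* it was -2.07 for the duodenum minus the jejunum (adjusted p = 0.00568), -1.71 for the duodenum minus the ileum (adjusted p = 0.0271) and 1.93 for the jejunum minus the colon (adjusted p = 0.0348). For *Slc6a20a* it was -2.31 for the duodenum minus the ileum (adjusted p = 0.00567) and 2.58 for the ileum minus the colon (adjusted p = 0.0369). For *Slc1a1* it was -2.67 for the duodenum minus the ileum (adjusted p = 0.00691) and -2.89 for the jejunum minus the ileum (adjusted p = 0.0354). For *Slc36a1* it was -1.42 for the duodenum minus the jejunum (adjusted p = 0.0456) and 2.04 for the jejunum minus the colon (adjusted p = 0.00718). For *Slc36a4* it was 4.18 for the duodenum minus the ileum (adjusted p = 0.0125) and 4.81 for the duodenum minus the colon (adjusted p = 0.00901). The values of *Slc36a4* were fitted against negative libraries with 2 counts in all in the duodenum and depend on the prior count. Without negative library 1 of the duodenum they were 6.90 (adjusted p = 0.00523) and 7.52 (0.00456), without negative library 2 of the duodenum the first was 3.63 (0.0526), and without negative library 2 of the colon the second was 3.59 (0.0924). Of the 26 differences, 9 missed the threshold without some single library: for the duodenum minus the jejunum those of *Slc3a1* (9 libraries, adjusted p = 0.0519 to 0.109) and *Slc36a1* (16 libraries, 0.0505 to 0.159), for the duodenum minus the ileum those of *Slc7a8* (6 libraries, 0.0529 to 0.0853) and *Slc36a4* (2 libraries, 0.0505 to 0.0526), and for the duodenum minus the colon that of *Slc36a4* (negative library 2 of the colon, 0.0924). The others were *Slc1a1* for the jejunum minus the ileum (8 libraries, 0.0507 to 0.108), *Slc7a8* for the jejunum minus the colon (7 libraries, 0.0537 to 0.181), and *Slc7a7* (9 libraries, 0.064 to 0.0949) and *Slc6a20a* (8 libraries, 0.0589 to 0.164) for the ileum minus the colon. With scaling by library size alone 8 of the 26 missed the threshold. They were those of *Slc3a1* (adjusted p = 0.0786) and *Slc36a1* (0.0775) for the duodenum minus the jejunum, *Slc7a7* (0.060), *Slc7a8* (0.189) and *Slc6a20a* (0.0595) for the duodenum minus the ileum, *Slc1a1* (0.105) for the jejunum minus the ileum, and *Slc7a7* (0.0658) and *Slc6a20a* (0.0728) for the ileum minus the colon. The difference of *Slc36a1* for the duodenum minus the jejunum also missed the threshold with no filter on low counts (0.054).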

How the results depend on the processing

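No paired analysis was possible because the labels do not say which libraries came from the same mouse. With a threshold of 0.01 on adjusted p, 1 member was higher and 0 lower in positive cells of the duodenum, and 7 in place of 10 were higher in the ileum. When every library had to hold at least 10 counts, only 4 members were left (*Slc15a1*, *Slc7a7*, *Slc1a1*, *Slc36a1*), of which 1, 3, 2 and 0 were higher in the duodenum, jejunum, ileum and colon, and the calls between regions were 16 in positive cells, 9 in negative cells and 10 for interactions. Models of the compared libraries alone called 4 members higher in the duodenum, and scaling by library size alone called 0 lower there; the causes were not tested. Of 139 member results (all 40 differences between the sorts and the 99 calls between regions), 13 lost and 1 gained a call under library size alone. None changed side with DESeq2, with RLE scaling or with protein-coding genes outside the mitochondrial genome alone. Among the results that each other setting covered, models of the compared libraries alone lost 3 and gained 2 calls. With no filter on low counts 2 were lost and 2 gained. With at least 10 counts in every library 2 were lost, and with the i5 index as covariate 1 was gained. Between regions DESeq2 called 44 in positive cells, 33 in negative cells and 30 interactions, against 42, 31 and 26. Within each i5 index, 26 of 26 calls between the sorts kept their sign. This outcome was fixed in advance, since positive and negative libraries stood apart for all of these calls, so it tells nothing about the index. Leaving out single libraries gave 1 to 2, 9, 7 to 10 and 3 to 4 higher members from duodenum to colon, 0 to 1, 1, 0 and 0 lower members, and 40 to 43, 27 to 33 and 21 to 28 calls between regions in positive cells, negative cells and interactions. Such omissions turned the sign of 3 uncalled differences: *Slc15a1* in the duodenum (-0.040 without positive library 3, range to 0.68), *Slc6a19* in the colon (0.22 and 0.18 without positive or negative library 1, range from -0.51) and *Slc7a8* in the colon (0.13 without negative library 2, range from -1.04). Of the calls between regions, those on *Slc36a1* between positive cells of duodenum and ileum (adjusted p up to 0.181) and on *Slc3a1* between positive cells of duodenum and colon (up to 0.183) missed the threshold without any 1 of 13 and of 15 libraries.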
